A study of Mus musculus with 4 samples.

Results

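The enzymes of the methionine and homocysteine cycle were followed in fetal mouse liver, in a series of 4 single-colour Affymetrix arrays that compared Sox17+/- with wildtype fetuses. The genes were chosen by function and comprised 9: Bhmt, Bhmt2, Mat1a, Mat2a, Gnmt, Ahcy, Cbs, Cth and Pemt. For each, the probe set with the highest mean signal over all 4 arrays was used among those whose annotation names exactly 1 gene symbol, and the remaining probe sets served as a check. In this way 8 of the 9 genes were measured with 10 probe sets, out of 18193 genes with such a probe set on the array. Mat2a had no probe set under its own symbol in the annotation used here and was not analysed here. All 8 passed the filter on dim signals, which kept 11691 genes. The fetuses were of the C57BL/6 strain, taken on gestation day 17, from virgin C57BL6 females of 6 to 8 weeks mated with Sox17+/- males over 3 months old. Liver was dissected away from the biliary tract before total RNA was extracted. Each genotype was represented by 2 biological replicates, numbered 1 and 2. The labels describe the mutant animals as Sox17+/- without naming the allele, and do not say whether a replicate was 1 fetus or several, or give sex. Sox17 encodes a transcription factor of endoderm, extrahepatic bile duct and arterial endothelium. The genotype comparison asked which liver transcripts differ in heterozygous fetuses.

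In the methionine cycle, methionine adenosyltransferase makes S-adenosylmethionine, the methyl donor of most cellular methylation. Methyltransferases turn it into S-adenosylhomocysteine, which is split to homocysteine, and homocysteine is either methylated back to methionine or passed through transsulfuration to cysteine. The liver is the main site of this traffic in mammals, and it carries forms that other tissues largely lack, such as the Mat1a enzyme, betaine-dependent remethylation by Bhmt and the buffering of S-adenosylmethionine by Gnmt.

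Bhmt and Bhmt2, the members with the lowest and second lowest heterozygote to wildtype difference, lie next to each other among the protein-coding genes of mouse chromosome 13 in RefSeq's GRCm38.p6 annotation, followed by Dmgdh, the enzyme that takes up dimethylglycine, the product of the Bhmt reaction. The stretches before their start sites are shown because the signals of these neighbours were all lower on the heterozygous arrays. For Bhmt it is the 250 bases before the start, chr13:93637759-93638008 on the minus strand. For Bhmt2 it is the 133 bases between its start and that of Dmgdh, which is read from the opposite strand, chr13:93674303-93674435 on the minus strand. Both are written 5′ to 3′ in the direction of the member, from RefSeq (GRCm38.p6), with matches to the motifs searched in capitals.
Bhmt: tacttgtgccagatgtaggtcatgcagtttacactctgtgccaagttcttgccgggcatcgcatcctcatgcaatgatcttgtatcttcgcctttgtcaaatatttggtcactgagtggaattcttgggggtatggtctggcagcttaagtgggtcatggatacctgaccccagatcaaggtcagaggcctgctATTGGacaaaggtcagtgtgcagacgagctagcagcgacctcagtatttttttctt
Bhmt2: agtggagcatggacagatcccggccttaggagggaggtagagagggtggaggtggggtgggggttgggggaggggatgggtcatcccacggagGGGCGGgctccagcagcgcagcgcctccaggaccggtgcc
The Bhmt stretch had a GC content of 48% and the stretch between Bhmt2 and Dmgdh 69.9%. Windows of 300 bases, 250 before and 50 after a start, were available for 7 of the 9 genes (8 windows) and were searched on both strands for 5 short motifs. AACAAT, a core of SOX factor binding sites, was found in 0 of the 8 windows and in 10.7% of 32851 windows of all genes. CCAAT was found in 6 of 8 (37.4% of all windows), in those of Ahcy, Bhmt, Cbs, Gnmt, Mat2a and Pemt. GGGCGG was found in 4 of 8 (35.7% of all), in those of Ahcy, Bhmt2, Cbs and Mat2a. TATAAA was found for Mat2a alone, 1 of 8 (13.6% of all), and TTGCNNCAA, a C/EBP motif, in 0 of 8 (2.08% of all). The capitals in the Bhmt stretch are CCAAT on the other strand, 52 to 56 bases before the start, and those in the Bhmt2 stretch are GGGCGG, 35 to 40 bases before the start. These are letter matches in a short window and not binding data, which were not measured here.

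Values are MAS5 signals, linear intensities scaled on each array so that the mean after trimming 2% at either end was 500, and differences are on the log2(signal + 16) scale unless a ratio is given. Sox17 itself was lower on both heterozygous arrays, with 139 and 124 against 244 and 264 in wildtype on its brighter probe set. Its dimmer probe set had 105 and 99.6 against 238 and 167 in wildtype. Neither passed limma's test (adjusted p = 0.9999 for each). The wildtype array numbered 1 stood apart from the other 3 in Actb, whose 3′ signal was 11909.5 there against 24712 to 35014, and its Actb signal was 1.95 times as high at the 3′ as at the 5′ end, compared with 1.20 to 1.43 times elsewhere. For Gapdh this quotient ranged from 0.807 to 0.853. Other properties went with the array number: arrays of one number share a code in their labelled names, whose meaning is not stated, and the 3′ signal of BioB, a hybridisation control, was 1191 and 1022 for number 1 but 397 and 421 for number 2. The brightest signal was 56988 and 56859.5 for number 1 but 34407 and 32468 for number 2. Differences between the genotypes are therefore also given within each number. Of 10 hepatocyte markers 8 were tested, and their summed signal followed the array number and not the genotype. It was 314182 (wildtype) and 310571 (heterozygous) for number 1 but 188968 and 180133 for number 2. The brightest signals of both arrays numbered 1 and of heterozygous array 2, given above, are those of Apoa1, a marker in this sum. These observations therefore overlap, and whether the sum measures hepatocyte content was not tested. Hnf4a, the dimmest of the 8 and a small part of that sum, had 3924 and 2641 in wildtype against 2867 and 2687 in heterozygous liver. For this gene wildtype array 1 stood above the other arrays, which were close together. Of these 8 markers, 2 were lower in heterozygous liver in both same-numbered pairs and 1 was higher in both, against 32.2% and 25.5% of tested genes. Kidney tubule markers were below the filter (0 of 5 tested), and of 6 pancreatic acinar markers 1, Prss2, was tested, with signals of 66.9 to 133. Markers of other liver cells did not move as 1 group. Among all tested genes, 18.6% were lower and 14.5% higher without overlap between the genotypes. Of 7 macrophage markers 3 were lower without overlap (Vsig4, Clec4f and Csf1r, log2 differences -1.68, -0.83 and -0.17) and 1 was higher (Marco, 1.03), while Cd5l stood at 0.02. Of 6 stellate cell and fibroblast markers 2 were higher without overlap (Des, 1.11, and Lrat, 0.29), and of 6 endothelial markers 3 were higher and 1 lower. Of 4 tested biliary markers 1 was higher (the dim Cldn4, 1.03), and of 5 tested erythroid markers 1 was lower (Klf1, -0.07). None of these markers passed limma's test (adjusted p = 0.9999 for each), and their part in the results below was not tested. In whole tissue, fewer cells of a type and less RNA per cell cannot be told apart.

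Betaine-dependent remethylation showed the widest separation between the genotypes. Bhmt, which moves a methyl group from betaine to homocysteine, had signals of 20739 and 9752 on wildtype arrays 1 and 2 and of 3500.4 and 3286 on the heterozygous arrays. The heterozygous arrays lay close together, and the lower wildtype array was still far above both. Within the arrays numbered 1 the heterozygous signal was 0.169 of wildtype, and within those numbered 2 it was 0.337. The log2 difference was -2.06 (SE 0.39), which put Bhmt second from the bottom among the 11691 tested genes. The difference did not pass limma's test after Benjamini-Hochberg adjustment over all 22519 tested probe sets (unadjusted p = 0.0028, adjusted p = 0.9999). Without the wildtype array numbered 1 the difference was -1.52. Here and below, leaving out that array sets wildtype array 2 against heterozygous arrays of both numbers. The genotypes are then not balanced for array number.

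Bhmt2, a related methyltransferase that uses S-methylmethionine, had signals of 5685 and 3280.5 in wildtype and 2421 and 2132 in heterozygous liver. Again the genotypes did not overlap, with ratios of 0.426 and 0.650 within the arrays numbered 1 and 2. The log2 difference was -0.92 (SE 0.32, adjusted p = 0.9999 by limma). Its dimmer probe set gave 2633 and 1664 against 1085 and 1152, a log2 difference of -0.90, so the probe sets of this gene did not disagree. The name of the brighter probe set has the suffix with which Affymetrix marks probes that can match several transcripts, and how far the Bhmt and Bhmt2 probes detect each other's transcript was not tested. Without wildtype array 1 the Bhmt2 difference was -0.53. Methionine synthase, Mtr, the enzyme of the other remethylation route, which uses methylfolate, had 493 and 586 in wildtype against 606 and 690 in heterozygous liver. It was named after its values were seen, and its log2 difference of 0.26 did not pass the test (adjusted p = 0.9999 by limma).

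**Figure D1:**
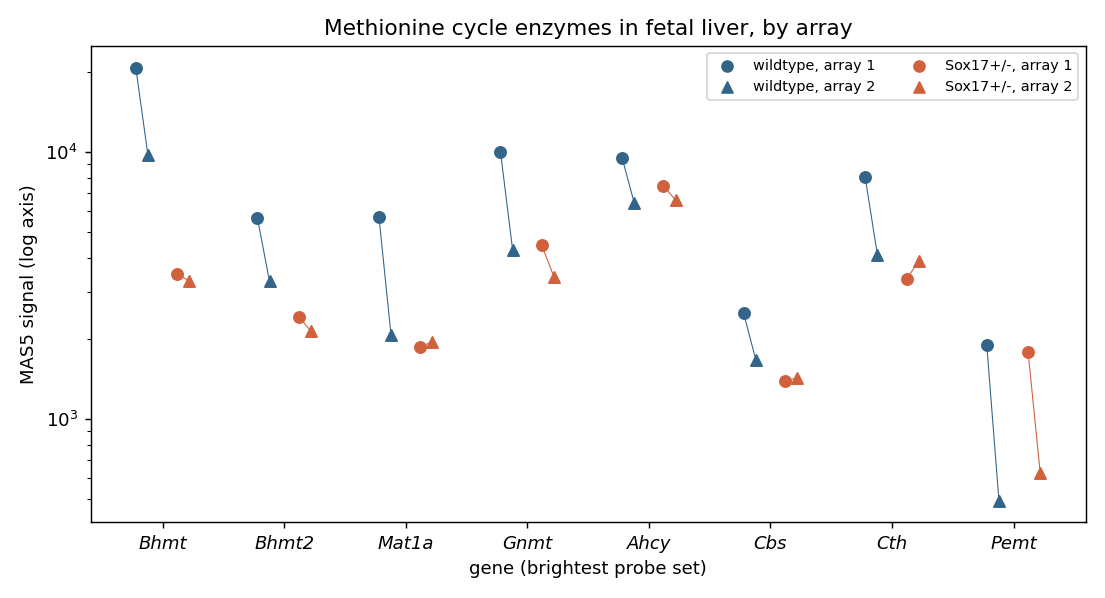
MAS5 signal (log axis) of the brightest probe set of each of the 8 measured enzymes on each array, with blue for wildtype, orange for Sox17+/-, circles for the arrays numbered 1 and triangles for those numbered 2, and a line joining the arrays of a genotype. Wildtype array 1 is the highest of the 4 for all 8 genes, Bhmt shows the widest gap between the genotypes, and Pemt follows the array number.

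Among the enzymes that make and use S-adenosylmethionine, Mat1a and Gnmt differed less between the genotypes once wildtype array 1 was left out. Pemt followed the array number. Mat1a, the liver form of methionine adenosyltransferase, had 5736 on wildtype array 1 and 2059 on wildtype array 2, against 1867 and 1945 in heterozygous liver. All arrays except wildtype array 1 were thus close to each other, and the heterozygous to wildtype ratio was 0.325 within the arrays numbered 1 and 0.945 within those numbered 2. The log2 difference of -0.85 (SE 0.49, adjusted p = 0.9999 by limma) was -0.11 without wildtype array 1.

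Gnmt, glycine N-methyltransferase, which uses up excess S-adenosylmethionine by methylating glycine to sarcosine, had 10016 and 4297 in wildtype and 4472 and 3411 in heterozygous liver. Here the groups overlapped, since heterozygous array 1 lay above wildtype array 2. The ratios within the pairs were 0.446 and 0.794. The log2 difference was -0.75 (SE 0.44, adjusted p = 0.9999 by limma) and -0.14 without wildtype array 1. Within the arrays numbered 2 it was -0.33.

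Ahcy, which splits S-adenosylhomocysteine to homocysteine and adenosine, had 9538 and 6450 in wildtype and 7478 and 6608 in heterozygous liver. The groups overlapped and the ratios were 0.784 and 1.02 within the pairs. The log2 difference was -0.16 (SE 0.27) and turned to 0.12 without wildtype array 1. Ahcy is needed in all cells that methylate, and it was among the brighter members, at the 97.8th percentile of all probe sets by mean signal.

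Pemt, which methylates phosphatidylethanolamine to phosphatidylcholine and is a large consumer of S-adenosylmethionine in liver, had 1890.4 and 495 in wildtype and 1777 and 625 in heterozygous liver. Its values separated by array number and not by genotype. The array numbered 1 was 3.82-fold above that numbered 2 in wildtype and 2.84-fold in heterozygous liver. The array numbered 1 was the higher in both genotypes for 5 of the 8 enzymes, against 31.5% of tested genes. Only 13 of the 11691 tested genes (0.111%) had arrays 1 and 2 at least as far apart as Pemt, in 1 direction, in both genotypes. The difference between genotypes was 0.12 with an SE of 0.77, and its sign depended on the arrays used.

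**Figure D2:**
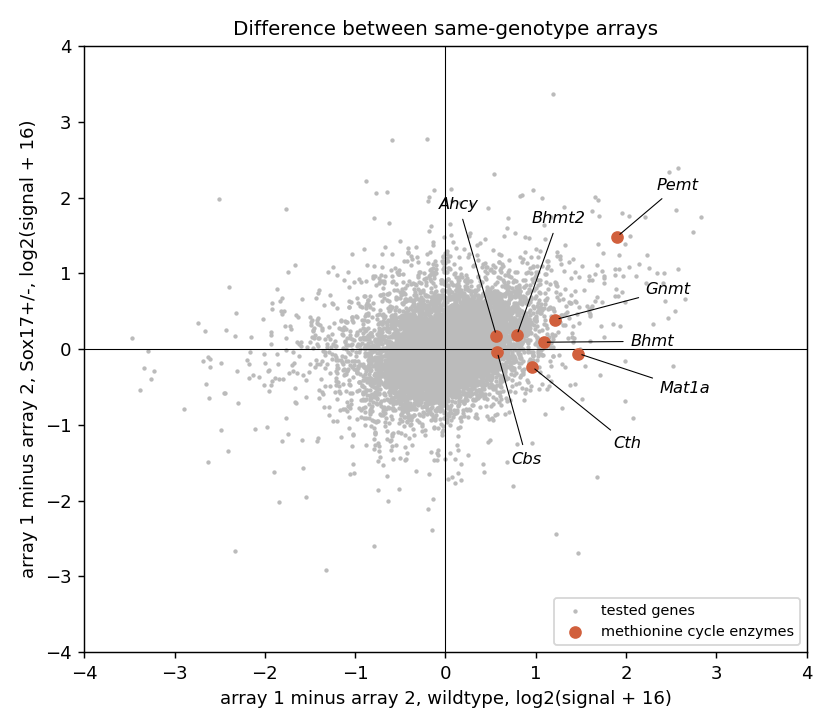
Array 1 minus array 2 in log2(signal + 16), in wildtype on the horizontal and in Sox17+/- on the vertical axis, for the 11691 tested genes (grey, 4 of them beyond the axes) and the 8 enzymes (orange). Pemt lies far out in both genotypes, while the other 7 enzymes differ between the wildtype arrays by 0.56 to 1.47 and between the heterozygous arrays by -0.23 to 0.39.

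Both enzymes of transsulfuration were lower on both heterozygous arrays than on either wildtype array, by a small margin over wildtype array 2. Cbs, cystathionine beta-synthase, which joins homocysteine with serine, had 2488 and 1668 in wildtype and 1390.3 and 1425 in heterozygous liver. Its log2 difference was -0.53 (SE 0.26, adjusted p = 0.9999 by limma), and the ratios within the pairs were 0.559 and 0.854. The dimmer Cbs probe set gave 1055 and 911 against 498 and 744, a log2 difference of -0.67. On that probe set the wildtype arrays were close together, at 1.16-fold apart against 1.49-fold on the brighter one. The name of the brighter Cbs probe set also has the suffix for probes that can match several transcripts. Whether it detects other transcripts was not tested.

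Cth, cystathionine gamma-lyase, which releases cysteine from cystathionine, had 8035 and 4129 in wildtype and 3333 and 3919 in heterozygous liver. The ratios within the pairs were 0.415 and 0.949. The log2 difference was -0.67 (SE 0.36, adjusted p = 0.9999 by limma). Without wildtype array 1 the differences of Cbs and Cth were -0.24 and -0.19.

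Across the 8 enzymes, 0 passed the test at an adjusted p under 0.05, as did 0 of the 11691 tested genes (0%). At an unadjusted p under 0.05 by limma, 2 were lower (Bhmt and Bhmt2) and 0 higher. Among the 11691 tested genes 297 (2.54%) were lower and 188 higher. With 2 arrays against 2, an exact two-sided permutation test cannot give a p below 0.333. The mean difference was below 0 for 7 of the 8, against 54.2% of tested genes. In both same-numbered pairs 6 of the 8 were lower in heterozygous liver and 0 higher, against 32.2% of tested genes lower in both and 25.5% higher in both. For 5 of the 8, the higher heterozygous array was still below the lower wildtype array, against 18.6% of tested genes. With 1 array left out, when more genes meet this by construction, the count was 5 without wildtype array 1 (36.1% of tested genes), 6 without heterozygous array 1 (34.6%) and 5 without heterozygous array 2 (36.8%). It was 8 without wildtype array 2 (37.7%), which only restates that wildtype array 1 was the highest for all 8. The genes were proposed with earlier results of this comparison known, so these counts are a description.

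The size of the differences depended on the pair. The median log2 difference of the 8 enzymes was -0.71, against -0.02 for all tested genes. It was -1.19 within the arrays numbered 1 and -0.15 within those numbered 2, and all 8 were further down within the former. Without wildtype array 1 the median over the enzymes was -0.16. Wildtype array 1 had the highest signal of the 4 arrays for 8 of 8 enzymes, against 30.5% of tested genes. It was also the array with the low Actb signal and the high 3′ to 5′ ratio, and the part of RNA quality in the differences was not tested. Within the arrays numbered 2, Bhmt and Bhmt2 stood apart from the remaining enzymes, which had heterozygous to wildtype ratios of 0.794 to 1.26.

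Centring each array on its median moved the median of all tested genes by -0.11 within the arrays numbered 1 and by 0.20 within those numbered 2. On that scale Mat1a and Cth turned to 0.12 and 0.13 within the arrays numbered 2, so that 4 enzymes instead of 6 were lower in both pairs (Bhmt, Bhmt2, Gnmt and Cbs). Bhmt and Bhmt2 stood at -1.36 and -0.42 there. With quantile normalization the count was 6.

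**Figure D3:**
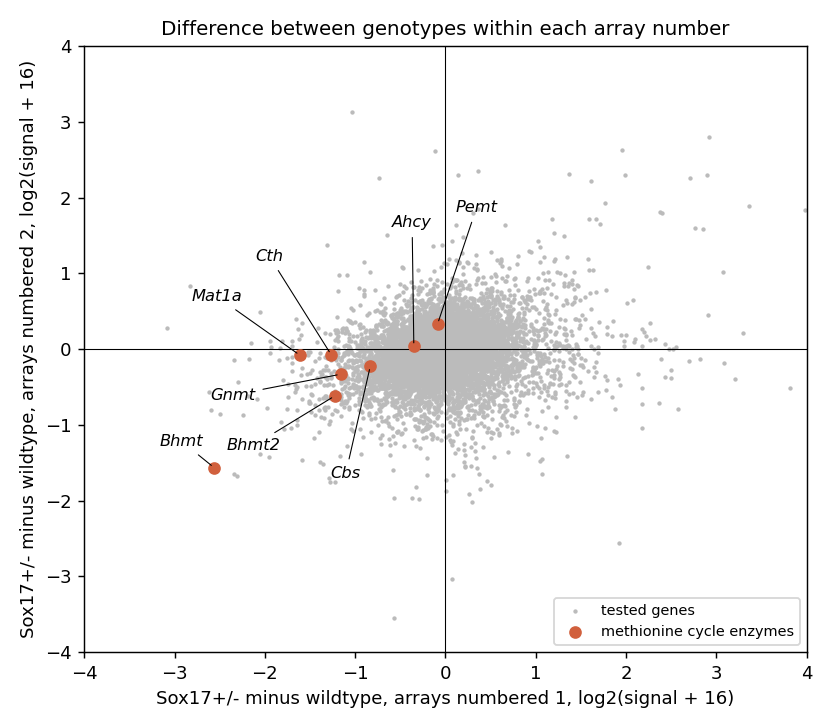
Sox17+/- minus wildtype in log2(signal + 16) within the arrays numbered 1 (horizontal axis) and within those numbered 2 (vertical axis), for the 11691 tested genes (grey, 9 of them beyond the axes) and the 8 enzymes (orange). Bhmt lies at -2.56 and -1.56, apart from the others. Bhmt2 has the next lowest vertical value, -0.62. The remaining enzymes spread along the horizontal axis with vertical values between -0.33 and 0.33.

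Of the lists of genes that feed the cycle or draw on it, that of choline, betaine and sarcosine had the lowest median. It holds breakdown enzymes, but also choline and ethanolamine kinases, phospholipid synthesis enzymes and a choline transporter, so its counts do not describe breakdown alone. Of 13 genes on this list 12 were tested with limma and 0 passed in either direction. The median log2 difference was -0.30, at -0.54 within the arrays numbered 1 and -0.06 within those numbered 2. In both pairs 8 were lower and 0 higher, against 32.2% and 25.5% of tested genes. For 7 of the 12 the genotypes did not overlap and heterozygous liver was lower, against 18.6% of tested genes. Pipox, which oxidises pipecolate and sarcosine, had 2201 and 1421 in wildtype against 947 and 927. Dmgdh, the chromosomal neighbour of Bhmt2 that demethylates dimethylglycine, had 1437 and 767 against 431 and 627. Sardh, which demethylates sarcosine, the product of Gnmt, had 2070.5 and 1286 against 951 and 1035. These 3 genes had the smallest p on the list, and their groups did not overlap, which choosing by p favours. Wildtype array 1 was again the highest, with log2 differences of -0.91, -0.99 and -0.71 (adjusted p = 0.9999 by limma for each).

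The folate cycle and glycine cleavage genes divided in direction. Of 21 listed genes 17 were tested with limma and 0 passed. The median log2 difference was -0.04, with 8 lower and 4 higher in both pairs, against 32.2% and 25.5% of tested genes. Without overlap between the genotypes, 7 were lower and 2 higher, against 18.6% and 14.5% of tested genes. In the 3 genes with the smallest p the wildtype arrays were close to each other, which choosing by p favours. Ftcd, which links histidine breakdown to folate, had 2187 and 1955 against 1164 and 1264 in heterozygous liver. Gldc, the decarboxylase of the glycine cleavage system, had 2262 and 2209 against 1198 and 1551. Fpgs, which adds the glutamate tail that retains folate in cells, had 1287 and 1289 against 678 and 898. Their log2 differences were -0.76, -0.71 and -0.71 (adjusted p = 0.9999 by limma for each).

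The lists downstream of the cycle had medians between -0.22 and -0.05. Among all tested genes, 32.2% were lower and 25.5% higher in both pairs. From each list the 3 genes with the smallest p are given. Of 14 genes of cysteine use and glutathione 12 were tested, with 6 lower and 2 higher in both pairs and a median log2 difference of -0.22. The median of this list was -0.37 within the arrays numbered 1 and -0.02 within those numbered 2. Suox, sulfite oxidase, had 424 and 659 in wildtype against 328 and 394, and Tst and Ethe1, which handle sulfur released from cysteine, had log2 differences of -0.29 and -0.27. Of 13 further methyltransferases that use S-adenosylmethionine 8 were tested, with 1 lower and 2 higher in both pairs and a median of -0.12. Icmt, which methylates prenylated proteins, had 366 and 363 against 279 and 298. Gamt, the last step of creatine synthesis, had 3945 and 2131 against 1704 and 2552, and Prmt1, an arginine methyltransferase, had 2176 and 4013 against 4048 and 3997, both with overlapping groups. Of 14 genes of methionine salvage, polyamines and partner proteins 12 were tested, with 5 lower and 1 higher in both pairs and a median of -0.05. The salvage enzymes Adi1, Mtap and Apip, chosen by p, had log2 differences of -0.40, -0.26 and -0.15. Mri1 and Enoph1, salvage enzymes named after their values were seen, stood at 0.11 and -0.02. On these 3 lists 0 genes passed limma's test after adjustment and 0 had an unadjusted p under 0.05. Of the 17 tested folate genes 3, and of the 12 tested choline genes 2, were under 0.05 unadjusted, all lower. Among all tested genes 2.54% were lower at that threshold.

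**Figure D4:**
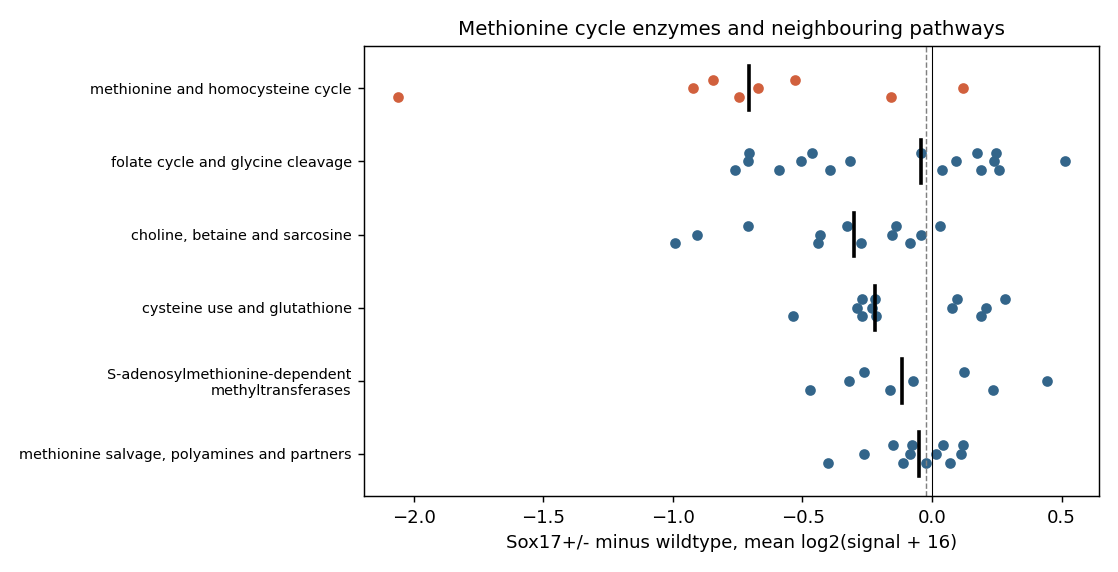
Sox17+/- minus wildtype in mean log2(signal + 16) for each tested gene (points) of the methionine cycle (orange) and of 5 neighbouring pathways (blue), with the median of each list as a black bar and the median of all tested genes, -0.02, as a dashed line. The methionine cycle median is -0.71 and the choline, betaine and sarcosine median -0.30, while the folate list spreads to both sides of 0.

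The genes whose course over the 4 arrays was most like that of Bhmt were found by the mean absolute difference of gene-centred log2(signal + 16) values. Akr1d1, a reductase of bile acid synthesis, was nearest at 0.09, with signals of 1373 and 678 in wildtype and 265 and 202 in heterozygous liver. It was followed by Vsig4, a complement receptor of Kupffer cells that is among the macrophage markers given above, at 0.25, the cytochrome P450 Cyp2f2 at 0.27, the complement component C9 at 0.31 and the zinc finger gene Zfp691 at 0.32. Their heterozygous to wildtype ratios of mean signal were 0.228, 0.276, 0.302, 0.280 and 0.318, against 0.223 for Bhmt. Ratios near that of Bhmt follow from the way these genes were chosen. Among 11690 genes ranked in this way, Bhmt2 came 69th, Mat1a 114th, Gnmt 193rd, Cth 268th and Cbs 571st, while Ahcy and Pemt came 3443rd and 8521st. With 4 arrays such likeness is a description of these libraries.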

How the data were processed

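Gene expression was measured in fetal liver of 2 wildtype and 2 Sox17+/- replicates, from biotin-labelled cRNA made from 10 μg of total RNA per array. The deposited values are intensity values, MAS5 signals on a linear scale per the submitters' processing notes, with a trimmed mean of 500 on each array as seen in the values. MAS5 works on each array alone, its dim signals are noisy, and the scaling removes differences in total RNA. Of 45101 probe sets, 64 controls were left out. Of the rest 34945 had 1 gene symbol, 932 several and 9160 none, and symbols were updated by Entrez identifier through RefSeq. The brighter 50% by mean log2(signal + 16), 22519 probe sets, entered a model with genotype alone (limma 3.58.1 under R 4.3.3, lmFit and eBayes, two-sided; 2 residual and 3.24 prior degrees of freedom), with Benjamini-Hochberg adjustment at 0.05. The code was tested on simulated data. A gene was represented by its brightest probe set. With 2 arrays a genotype their number limits the precision, and p-values measure only the spread between these samples.

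The members and lists were chosen with earlier results of these data known. Genes named were the members, Sox17, the 3 smallest p of each neighbouring pathway list, and the 5 genes most like Bhmt. Mtr, Mri1, Enoph1 and the markers were added to these. Alternatives covered the pseudocount (1 or 64), the filter (none or the brighter 25%), median centring, quantile normalization, each array left out, the array number as a block, a trended robust prior and the mean over a gene's probe sets. The number of members whose groups do not overlap with an array left out was added after seeing the data. Protein sequences were not used here.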

Additional observations from a re-analysis of the deposited data

How the results depend on the processing

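Under all alternatives run, 0 members passed the test, and Bhmt kept its direction, between -2.61 and -1.52 on the log2 scale, with adjusted p from 0.108 (without wildtype replicate 2) to 0.99999 by limma. Bhmt2, Mat1a, Gnmt, Cbs and Cth also kept theirs. With each array left out in turn, Ahcy ran from -0.44 to 0.12 and was above 0 without wildtype replicate 1. Pemt ran from -0.83 (without wildtype replicate 2) to 1.07, with -0.62 without Sox17+/- replicate 1. Each of these fits leaves the array numbers unbalanced between the genotypes. The signal of Pemt was 3.82-fold (wildtype) and 2.84-fold (Sox17+/-) higher on number 1 than on number 2. What sets the numbers apart was not tested. Leaving out each array in turn gave a median of the members between -1.23 and -0.16, and between 5 and 8 members with every heterozygous array below every wildtype array, where 34.6% to 37.7% of tested genes met this. The 8, without wildtype replicate 2, follows from wildtype array 1 being the highest for all 8 members. Over all probe sets, 5 were called with median centring and 3 with a trended robust prior against 0, none of them of a member; the cause was not tested.

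Replicate numbers are shared between the genotypes. The deviations of same-numbered arrays from the mean of their genotype correlated at r = 0.383 over 22519 probe sets, and the array names in the labels carry a common code for each number, whose meaning is not given. With 2 pairs the data cannot settle whether the numbers pair the samples. With the replicate block the median of the members was -0.71, 0 probe sets and 0 members passed, and Bhmt had an adjusted p of 0.579 by limma. A fit with 1 array of a genotype assumes that it varies like the other genotype.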
